A study of Mus musculus with 6 samples.

Results

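Semaphorins, ephrins, Slits and netrins are extracellular cues that steer axons and migrating cells, and this RNA sequencing dataset was read for these ligands and for their plexin, neuropilin, Eph, Robo, Unc5, Dcc and neogenin receptors. Members were chosen by gene symbol, with earlier results of these data known, which gave 70 of the 24214 genes in the count tables, 35 ligands and 35 receptors. The cells were 393P, an epithelial lung adenocarcinoma (LUAD) line of C57BL/6 mouse origin whose labels call it KP lung cancer, grown in RPMI-1640 with serum. The comparison was between 393P_ZEB1, stably transfected with an expression vector for ZEB1, the transcription factor that activates epithelial-to-mesenchymal transition (EMT), and 393P_vector, which carried the empty vector. SOLiD sequencing of total RNA covered 3 samples per condition. Neither the labels nor the methods state whether a transfectant was a pool or 1 clone, or whether replicates stem from separate transfections or cultures, so the p-values measure only the spread between these samples, which may be technical. The methods name puromycin or G418 selection for stable transfectants without saying which was used here.

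In the nervous system these cues attract or repel growth cones by reshaping actin at the leading edge, and in epithelia and tumors the same molecules act on cell sorting, adhesion and motility. Semaphorins signal mainly through plexins, and most secreted class 3 semaphorins need a neuropilin as the ligand-binding co-receptor. Ephrins are tethered to the membrane and bind Eph receptor tyrosine kinases on the neighboring cell. Slits signal through Robo receptors, and netrins through Dcc, neogenin and the Unc5 family.

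Total counts ranged from 54442450 to 79158012 per sample, and the detection limit of 3 counts amounted to 0.0361 to 0.0561 CPM (each count divided by the library size after TMM normalization). Zeb1 was at 21.2, 22.0 and 21.4 CPM in 393P_vector replicates 1 to 3 and at 54.9, 48.9 and 51.3 CPM in 393P_ZEB1 replicates 1 to 3. Reads from any transgene that aligns to Zeb1 are part of this count. Of 9 epithelial markers, 8 fell, and their summed level was 4744 to 5422 CPM in 393P_vector and 2748 to 3045 CPM in 393P_ZEB1. All 6 mesenchymal markers (Vim, Cdh2, Fn1, Zeb2, Twist1 and Zeb1) rose. The count of Zeb1 may include the transgene, so its own rise says little about cell state. The lung markers Nkx2-1, Sftpc, Sftpb and Scgb1a1 summed to at most 0.144 CPM in any sample, so the labelled lung tissue was not visible in defining lung genes. Marker sums for endothelium stayed at or below 2.69 CPM and those for leukocytes at or below 3.64 CPM. Only 2 of 6 markers in each of these lists were high enough to test. Of those, Kdr (1.91 against 0.330 CPM) passed the threshold and Pecam1, Ptprc and Cd68 did not. The groups were nevertheless apart for Cd68, at means of 2.04 CPM in 393P_vector and 1.03 CPM in 393P_ZEB1. Fibroblast marker sums were 2.23 to 3.06 CPM in 393P_vector and 2.36 to 3.05 CPM in 393P_ZEB1, and within them Col3a1 rose and Pdgfra fell. Neural marker sums were 71.5 to 76.0 CPM in 393P_vector and 55.7 to 59.2 CPM in 393P_ZEB1, most of it Mbp and Map2 (Mtap2 in the files), with Snap25 rising and Mbp falling. Whether cells of another type contributed to any result was not tested, and in bulk RNA fewer cells of a type and less RNA per cell cannot be told apart. 393P_vector replicate 3 stood apart from its group, differing at least 2-fold from replicates 1 and 2 in 7.80% and 8.60% of genes against 1.59% to 2.15% for the other pairs, although none of the 57 tested guidance genes did.

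A gene was called when the adjusted p from edgeR's quasi-likelihood test, computed over all 13892 genes that passed the filter on low counts, was below 0.05. Among all genes tested 37.6% were called, 18.3% higher and 19.3% lower in 393P_ZEB1. By chromosome, median log2 fold changes ran from -0.43 (chromosome 17) to 0.64 (chromosome 18), apart from chromosome Y at -6.89 over 6 tested genes. No guidance gene lies on chromosome Y. Differences between the transfectants other than ZEB1 cannot be told apart from its effect in this design, and their cause was not tested. Of the 70 guidance genes 57 passed the filter, and 38 of these (66.7%) were called, 18 higher and 20 lower. The share called over all genes depended on 393P_vector replicate 3. Without it, 3700 genes were called higher and 3776 lower of 14106 tested, while 18 and 21 guidance genes were called. The contrast between the 2 shares was then smaller. The median log2 fold change of the 57 was -0.003, against -0.02 over all genes, so they did not move one way as a group. Their median absolute log2 fold change was 0.82, against 0.39 over all genes tested, and 25 (43.9%) differed more than 2-fold, against 18.6%. The 3 samples of one condition lay fully above or below the 3 of the other for 42 of the 57, where 52.8% of all genes tested did so. Ligands and receptors were divided in the same way, with 9 higher and 12 lower among 31 ligands and 9 higher and 8 lower among 26 receptors. Since the set was chosen with earlier results known, these shares only describe it, and no test of the set against other genes was made.

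**Figure D1:**
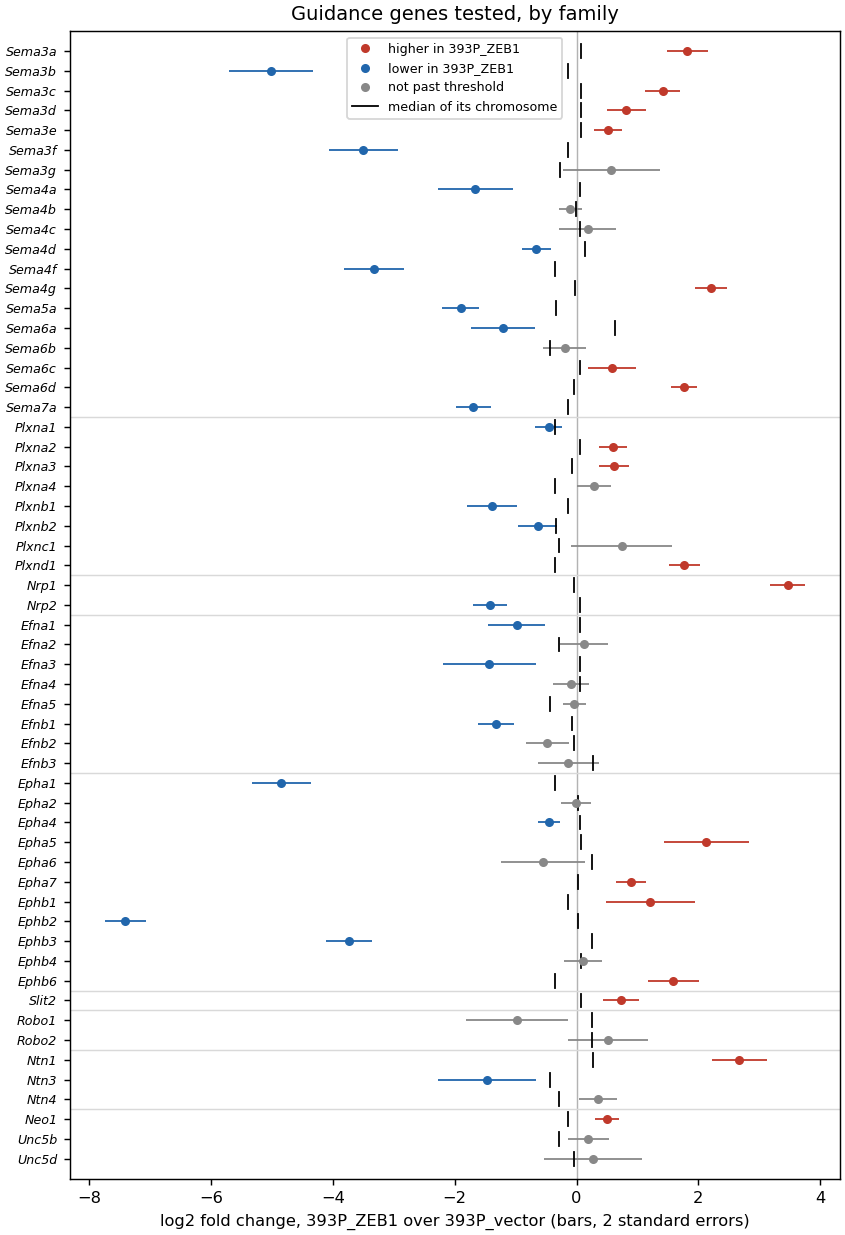
Log2 fold change of 393P_ZEB1 over 393P_vector (x axis) for the 57 guidance genes tested, grouped by family, with bars of 2 standard errors; red, higher, blue, lower, gray, not past the threshold, and the black tick is the median of all genes tested on the same chromosome. Values run from -7.41 for Ephb2 to 3.47 for Nrp1, and the semaphorins, plexins and Eph receptors each have called genes in both directions.

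ZEB1 binds E-box sequences with the core CACCTG, and promoters are shown here for the 2 genes with the largest falls among those with a promoter entry (Ephb2 and Epha1), for Sema4f, the one called member that held the core more than once, and for Nrp1, which had the largest rise and held none. Each line gives the 250 bases before the RefSeq start site (GRCm38.p6), 5′ to 3′ on the strand of the gene, with the core, searched as CACCTG or CAGGTG to cover both strands, in capitals. The windows lie at chr4:136836013-136836262 (minus strand, Ephb2), chr6:42373269-42373518 (minus strand, Epha1), chr6:82939770-82940019 (minus strand, Sema4f) and chr8:128358823-128359072 (plus strand, Nrp1).
Ephb2: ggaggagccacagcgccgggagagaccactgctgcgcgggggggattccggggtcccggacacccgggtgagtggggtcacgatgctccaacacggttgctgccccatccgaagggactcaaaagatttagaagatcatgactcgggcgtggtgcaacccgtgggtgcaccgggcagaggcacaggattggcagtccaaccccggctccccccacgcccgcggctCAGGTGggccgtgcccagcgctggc
Epha1: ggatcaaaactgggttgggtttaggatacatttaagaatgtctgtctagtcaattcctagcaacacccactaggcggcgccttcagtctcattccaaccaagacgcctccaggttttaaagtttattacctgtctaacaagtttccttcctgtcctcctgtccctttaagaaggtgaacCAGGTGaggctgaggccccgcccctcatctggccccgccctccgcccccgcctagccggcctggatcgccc
Sema4f: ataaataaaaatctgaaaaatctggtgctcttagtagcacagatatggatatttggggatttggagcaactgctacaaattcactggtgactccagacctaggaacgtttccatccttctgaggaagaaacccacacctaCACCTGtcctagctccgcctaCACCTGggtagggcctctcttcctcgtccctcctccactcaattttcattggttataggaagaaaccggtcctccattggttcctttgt
Nrp1: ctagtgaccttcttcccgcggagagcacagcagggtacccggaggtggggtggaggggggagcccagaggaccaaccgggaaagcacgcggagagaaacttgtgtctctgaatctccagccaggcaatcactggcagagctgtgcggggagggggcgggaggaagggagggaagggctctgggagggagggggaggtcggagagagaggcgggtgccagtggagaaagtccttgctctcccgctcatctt
Counted from the start site, the core began at -25 in Ephb2, at -71 in Epha1 and at -110 and -89 in Sema4f. The RefSeq start sites of Epha1 and Nrp1 were those of the deposited gene models, while that of Sema4f lay 19 bases and that of Ephb2 77 bases upstream. Bases just after the start site were found in a GENCODE M21 transcript of the gene for Epha1, Sema4f and Nrp1. For Ephb2 they were not, so the position of its core depends on a start site that GENCODE did not match. Over windows of 300 bases (250 before and 50 after the start site), 20.2% of all 32851 RefSeq promoters and 18.2% of those of tested genes held the core. Of the 76 windows of guidance genes 10 (13.2%) held it. By gene, 22.6% of all 27025 genes with a window and 21.1% of the 9748 tested genes with a window had it. Of the 60 guidance genes with a window, 11 of them not tested, 10 (16.7%) held the core. Those 10 comprised 4 of 16 lower genes (Ephb2, Epha1, Sema4f and Plxnb2), 2 of 17 higher genes (Sema6d and Sema3d), 3 of 16 genes not called and 1 of 11 not tested. Like that of Ephb2, the windows with the core of Plxnb2, Sema3d and Sema4c had start sites that GENCODE transcripts did not match. These shares were not compared by a test, and a match describes letters in the window without showing a bound site. Sema4f was printed because of its cores, while Ephb3, which had a larger fall (log2 fold change -3.73 against -3.33), held none.

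Eph receptors are divided into EphA and EphB classes by sequence and by their preference for A-type or B-type ephrins. Ephb2 fell furthest of all 57 guidance genes. It is located on chromosome 4 from 136653610 to 136835935 and encodes a receptor tyrosine kinase known for positioning epithelial cells along the intestinal crypt. Ephb2 was at 31.5, 30.3 and 29.2 CPM in 393P_vector replicates 1 to 3 and at 0.187, 0.162 and 0.180 CPM in 393P_ZEB1 replicates 1 to 3, the latter resting on 10, 9 and 11 counts. The groups were far apart and the log2 fold change was -7.41 (SE, its standard error, 0.17, adjusted p = 3.44e-07). In the exon column of the files, 15 of the 16 Ephb2 exons had more than 10 reads in each 393P_vector sample and none did in any 393P_ZEB1 sample, where the counts of the whole gene leave little room for any exon to pass that number. No other annotated gene shares exonic sequence with Ephb2 in GENCODE M21.

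Epha1, on chromosome 6 from 42358487 to 42373268, is the founding member of the family and is found mainly in epithelia. Its level was 16.0, 16.0 and 10.99 CPM in 393P_vector and 0.505, 0.576 and 0.409 CPM in 393P_ZEB1. The log2 fold change of Epha1 was -4.85 (SE 0.24, adjusted p = 5.29e-06), and 16 to 17 of its 18 exons had more than 10 reads in 393P_vector against none in 393P_ZEB1, at 25 to 32 counts for the whole gene. Of its exonic bases 6.01% overlap Zyx on the opposite strand, and the use of strand in counting is not given in the sources used here, so the few remaining reads cannot be assigned to either gene. Ephb3, on chromosome 16 from 21204795 to 21223304, acts together with Ephb2 in crypt positioning. Ephb3 was at 22.5, 24.0 and 21.0 CPM in 393P_vector and at 1.29, 1.84 and 1.93 CPM in 393P_ZEB1, a log2 fold change of -3.73 (SE 0.19, adjusted p = 5.82e-06). In 393P_ZEB1, 2 to 3 of the 16 exons of Ephb3 had more than 10 reads.

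The most abundant Eph receptors did not follow these 3. Epha2, a receptor prominent in carcinoma cells, had the highest level per kb of exon in its family, 220.4 CPM per kb in 393P_vector and 219.9 CPM per kb in 393P_ZEB1. Its samples were at 908, 936 and 744 CPM in 393P_vector and at 806, 914 and 863 CPM in 393P_ZEB1, with overlapping groups, and the interval of 2 standard errors around its log2 fold change ran from -0.25 to 0.25. Ephb4, best known from vascular development, was at 192 ± 34.4 CPM (SD, n = 3) in 393P_vector and 207 ± 21.0 CPM (SD, n = 3) in 393P_ZEB1, with an interval of -0.20 to 0.42. The EphB class therefore held 2 genes that fell steeply and 1 abundant gene whose change was not detected. Ephb4 made up 74.1% to 78.1% of the EphB transcripts per kb in 393P_vector and 89.4% to 91.2% in 393P_ZEB1.

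Other Eph receptors rose. Ephb6, which lacks kinase activity, went from 5.59 ± 1.47 to 16.8 ± 0.631 CPM (SD, n = 3), a log2 fold change of 1.59 (SE 0.21, adjusted p = 0.0008). Ephb6 lies on chromosome 6, whose tested genes had a median log2 fold change of -0.36, so its change ran against the median of its chromosome. Epha7 rose by 0.90 (adjusted p = 0.000853) from 10.3 ± 0.571 to 19.1 ± 1.01 CPM. Epha5 was at 0.318, 0.187 and 0.193 CPM in 393P_vector and at 0.692, 1.04 and 1.29 CPM in 393P_ZEB1, a log2 fold change of 2.13 (adjusted p = 0.00237) on 11 to 79 counts per sample. Epha4, the second most abundant EphA receptor, fell by 0.45 on the log2 scale (adjusted p = 0.00592). Ephb1 had a log2 fold change of 1.21 (adjusted p = 0.0335) at 5 to 16 counts per sample, a call that was lost whenever any 1 sample was left out (adjusted p 0.0542 to 0.121). Summed over the family, Eph receptors were at 321 ± 36.1 CPM per kb in 393P_vector and 303 ± 18.1 CPM per kb in 393P_ZEB1 (SD, n = 3), and the 3 samples of each condition overlapped.

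**Figure D2:**
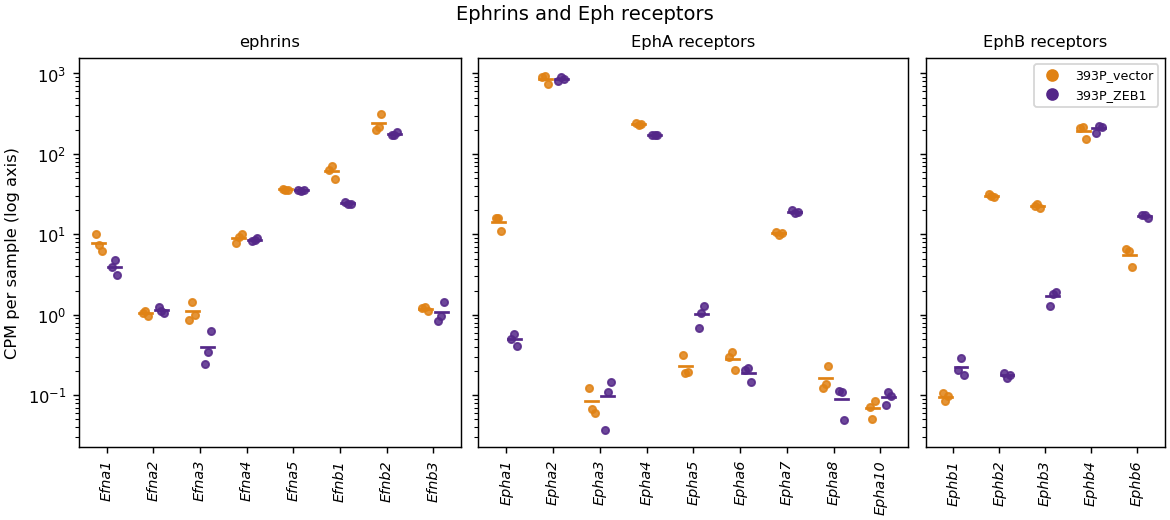
CPM per sample on a log axis for the ephrins, EphA receptors and EphB receptors; each dot is 1 sample, the short line is the mean of 3, orange is 393P_vector and violet is 393P_ZEB1. Epha1, Ephb2 and Ephb3 drop from between 10.99 and 31.5 CPM to below 2 CPM, while Epha2 and Ephb4 overlap between conditions, and Epha3, Epha8 and Epha10 lie at or below 0.253 CPM.

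Among the ephrins, the membrane-bound ligands of these receptors, 3 of 8 fell, none rose and 5 were not called. Efnb1, a transmembrane ephrin of the B class encoded on the X chromosome, was at 63.5, 70.2 and 48.9 CPM in 393P_vector and at 25.5, 24.0 and 23.5 CPM in 393P_ZEB1. This was a log2 fold change of -1.32 (SE 0.15, adjusted p = 0.000367) with groups well apart. Efna1, a GPI-anchored ligand of Epha2, was at 9.96, 7.33 and 6.28 CPM in 393P_vector and at 3.96, 4.84 and 3.13 CPM in 393P_ZEB1, a log2 fold change of -0.98 (adjusted p = 0.014). The call on Efna1 was lost without 393P_ZEB1 replicate 1 or 3 (adjusted p = 0.0591 and 0.059). Efna3 was low, at 0.866, 1.44 and 0.987 CPM in 393P_vector and 0.243, 0.342 and 0.622 CPM in 393P_ZEB1, with a log2 fold change of -1.43 (adjusted p = 0.0212). Leaving out 393P_vector replicate 2, 393P_ZEB1 replicate 1 or 393P_ZEB1 replicate 2 ended the call on Efna3 (adjusted p = 0.0575, 0.0754 and 0.0831), and 14.1% of its exonic bases overlap an antisense gene.

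Efnb2, the most abundant ephrin per kb and a partner of Ephb4, was not called with all samples, but its value moved with the libraries and the test used. It was at 200.1, 219 and 314 CPM in 393P_vector and at 171, 169 and 186 CPM in 393P_ZEB1, so the groups did not overlap but 393P_vector replicate 3 was far above the rest. With all samples the log2 fold change of Efnb2 was -0.48 and not called (SE 0.17, adjusted p = 0.0646). Without 393P_vector replicate 3 the change was smaller, -0.26, and passed the threshold (adjusted p = 0.0205), and without 393P_vector replicate 1 it was -0.60 (adjusted p = 0.0388). With all samples, limma voom gave -0.24 (adjusted p = 0.0226). Efna5 was at 36.1 ± 0.849 CPM in 393P_vector and 35.3 ± 0.425 CPM in 393P_ZEB1 (SD, n = 3), with an interval for the log2 fold change of -0.23 to 0.16. All ephrins together went from 94.5 ± 10.7 to 63.9 ± 1.92 CPM per kb (SD, n = 3), and the 3 393P_ZEB1 sums lay below the 3 393P_vector sums. Efnb2, itself not called, made up 54.2% to 68.4% of this sum in 393P_vector and 62.7% to 65.2% in 393P_ZEB1. Within the sum it went from 56.6 to 40.7 CPM per kb. The 3 A-type ephrin genes Efna1, Efna3 and Efna4 lie within 66.3 kb on chromosome 3 (chr3:89271730-89338028), where Efna4 had a log2 fold change of -0.09 (adjusted p = 0.668).

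Semaphorins formed the largest family, with 20 genes of which 19 were tested, 7 rose, 8 fell and 4 were not called. Class 3, the secreted semaphorins, held both the most abundant and some of the most reduced members. Sema3c, known for guiding neural crest cells into the cardiac outflow tract, had the highest level per kb of the family, 169 CPM per kb in 393P_vector and 449 CPM per kb in 393P_ZEB1. Its samples were at 786, 727 and 983 CPM in 393P_vector and at 2306, 2259 and 2079 CPM in 393P_ZEB1, a log2 fold change of 1.41 (SE 0.14, adjusted p = 0.000187). Sema3a, the prototype of a growth cone collapsing factor, rose from 123 ± 27.5 to 433 ± 26.2 CPM (SD, n = 3), a log2 fold change of 1.82 (adjusted p = 0.000122). Sema3e, which binds Plxnd1 without a neuropilin, rose by 0.52 (adjusted p = 0.00898) and the less abundant Sema3d by 0.82 (adjusted p = 0.00552).

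Sema3b and Sema3f went the other way. Both are known as candidate tumor suppressors from a chromosomal region often lost in lung cancer. Sema3b was at 10.2, 10.6 and 10.1 CPM in 393P_vector and at 0.131, 0.432 and 0.377 CPM in 393P_ZEB1, which corresponds to 7, 24 and 23 counts. Its log2 fold change was -5.02 (SE 0.34, adjusted p = 2.4e-05), and 16 of 21 exons had more than 10 reads in each 393P_vector sample against 0 or 1 in 393P_ZEB1, at those few counts for the whole gene. Sema3f was at 5.05, 4.54 and 5.73 CPM in 393P_vector and at 0.430, 0.630 and 0.295 CPM in 393P_ZEB1, a log2 fold change of -3.50 (SE 0.29, adjusted p = 5.93e-05). For neither gene did any sample of one condition approach the other. Sema3g stayed at or below 0.318 CPM in every sample and was not called.

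The class 3 genes that rose and those that fell lie in separate parts of the genome. Sema3d, Sema3a, Sema3e and Sema3c lie on chromosome 5 within 5.347 Mb (chr5:12383166-17730267), and all 4 rose. The count tables hold 17 genes in this stretch, and only 2 besides the semaphorins were tested. Of these, Cacna2d1 rose by 3.85 and Pclo had a log2 fold change of 0.11 and was not called. Sema3b and Sema3f lie on chromosome 9 within 112.4 kb (chr9:107598115-107710475), and both fell. Gnai2 between them, the only other gene tested there, had a log2 fold change of -0.16 and was not called (adjusted p = 0.302). The medians of all tested genes were 0.07 on chromosome 5 and -0.14 on chromosome 9, which cannot show a change limited to these stretches. Whether neighboring genes share a cause of change was not tested.

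Membrane-bound semaphorins were similarly divided. Sema4f, on chromosome 6 from 82911885 to 82939750, was at 14.3, 13.5 and 8.38 CPM in 393P_vector and at 1.08, 1.30 and 1.21 CPM in 393P_ZEB1, a log2 fold change of -3.33 (SE 0.25, adjusted p = 3.56e-05). Sema4g, on chromosome 19 from 44989344 to 45003395, was at 8.27, 7.56 and 6.67 CPM in 393P_vector and at 34.6, 35.6 and 33.8 CPM in 393P_ZEB1. Its log2 fold change was 2.21 (SE 0.13, adjusted p = 9.48e-06), the largest rise among the semaphorins. Per kb of exon these 2 members of the same class were at 2.41 and 1.75 CPM per kb in 393P_vector and at 0.239 and 8.09 CPM per kb in 393P_ZEB1.

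Sema6d, a transmembrane ligand of Plxna1 and Plxna4, rose by 1.76 (adjusted p = 1.37e-05) from 18.7 ± 1.12 to 63.4 ± 3.43 CPM (SD, n = 3). Sema7a, the GPI-anchored semaphorin that binds Plxnc1 and integrins, fell by 1.69 on the log2 scale (adjusted p = 6.58e-05) from 53.6 ± 7.30 to 16.6 ± 1.44 CPM. Sema5a, which carries thrombospondin repeats, fell by 1.90 (adjusted p = 5.23e-05) from 6.92 ± 0.161 to 1.85 ± 0.163 CPM, and Sema4d, the ligand of Plxnb1, fell by 0.66 (adjusted p = 0.00327). Sema4a and Sema6a fell by 1.66 and 1.21 at levels below 1 CPM, Sema6a on chromosome 18, where the median of all genes was 0.64. Sema6c had a log2 fold change of 0.59 at an adjusted p of 0.0498, and leaving out any sample but 393P_vector replicate 3 ended its call (adjusted p 0.0625 to 0.137). Sema4b, at 155 ± 10.7 and 145 ± 3.88 CPM (SD, n = 3), Sema4c and Sema6b were not called, and 7.27% of the exonic bases of Sema4c overlap an antisense gene. Summed per kb, semaphorin transcripts were at 294 ± 23.2 CPM per kb in 393P_vector and 613 ± 28.8 CPM per kb in 393P_ZEB1 (SD, n = 3). The rise came mostly from Sema3c, whose share was 53.6% to 62.3% in 393P_vector and 72.6% to 74.0% in 393P_ZEB1.

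**Figure D3:**
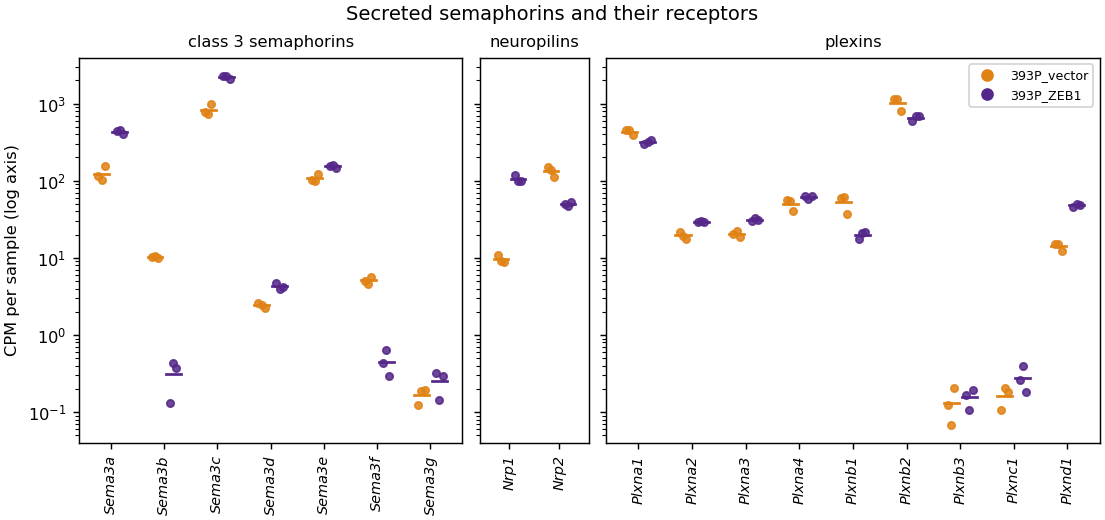
CPM per sample on a log axis for class 3 semaphorins, neuropilins and plexins; each dot is 1 sample, the short line is the mean of 3, orange is 393P_vector and violet is 393P_ZEB1. Sema3a and Sema3c rise while Sema3b and Sema3f fall below 1 CPM, and Nrp1 and Nrp2 exchange rank between the conditions.

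Neuropilins, the co-receptors of class 3 semaphorins and of VEGF, changed in opposite directions. Nrp1, on chromosome 8 from 128359073 to 128505475 and the binding receptor for Sema3a, was at 10.9, 9.04 and 8.97 CPM in 393P_vector and at 118, 100.3 and 100.3 CPM in 393P_ZEB1. This was a log2 fold change of 3.47 (SE 0.14, adjusted p = 2.16e-06), the largest rise of all 57 guidance genes. The number of its 17 exons with more than 10 reads went from 13 to 15 in 393P_vector to all 17 in 393P_ZEB1. Nrp2, on chromosome 1 from 62703317 to 62818692 and the preferred receptor for Sema3f, was at 151, 139 and 110.2 CPM in 393P_vector and at 49.3, 47.5 and 52.3 CPM in 393P_ZEB1, a log2 fold change of -1.42 (SE 0.14, adjusted p = 0.000148). Neither change was met by an overlap of any samples. Per kb of exon, Nrp1 made up 8.21% to 10.0% of neuropilin transcripts in 393P_vector and 72.5% to 76.7% in 393P_ZEB1. The sum of both was 18.1 ± 2.71 and 24.1 ± 1.76 CPM per kb (SD, n = 3), so the exchange was larger than the change of the total. Transcripts of the pair Sema3a and Nrp1 were both higher in 393P_ZEB1, and those of the pair Sema3f and Nrp2 both lower. Other combinations went opposite ways, as Sema3c rose (1.41) while Nrp2 fell, and Sema3b fell (-5.02) while Nrp1 rose. Whether ligands and receptors changed together was not tested.

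Plexins are the main signal-transducing receptors for semaphorins, and of 8 tested 3 rose, 3 fell and 2 were not called. Plxnd1, the receptor of Sema3e, was at 15.1, 15.0 and 12.4 CPM in 393P_vector and at 46.0, 50.4 and 48.8 CPM in 393P_ZEB1, a log2 fold change of 1.77 (SE 0.12, adjusted p = 2.52e-05). Its chromosome 6 had a median of -0.36, so this change too ran against the median of its chromosome. Plxnb1, a receptor of Sema4d, was at 59.7, 60.9 and 37.1 CPM in 393P_vector and at 17.7, 20.9 and 21.5 CPM in 393P_ZEB1, a log2 fold change of -1.39 (SE 0.20, adjusted p = 0.00142). Although 393P_vector replicate 3 was lower than the other vector samples, it still exceeded each 393P_ZEB1 sample.

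Plxnb2, the most abundant plexin per kb (156 CPM per kb in 393P_vector and 100.3 CPM per kb in 393P_ZEB1), was at 1129, 1131 and 792 CPM in 393P_vector and at 586, 687 and 687 CPM in 393P_ZEB1. It had a log2 fold change of -0.64 (SE 0.16, adjusted p = 0.0177). This call was lost on leaving out any 1 sample other than 393P_vector replicate 3 (adjusted p 0.0517 to 0.079), and when libraries were scaled within chromosome 15 (-0.29, adjusted p = 0.165). Plxna3, which transduces class 3 signals, was at 20.3, 22.5 and 18.5 CPM in 393P_vector and at 29.998, 32.8 and 31.0 CPM in 393P_ZEB1, a log2 fold change of 0.62 (adjusted p = 0.00522). Plxna2 rose by 0.60 (adjusted p = 0.0055). Plxna1, the most abundant A-type plexin, had a log2 fold change of -0.46 (adjusted p = 0.014), which became -0.16 (adjusted p = 0.324) when scaled within chromosome 6 and lost its call without 393P_vector replicate 1, 393P_ZEB1 replicate 1 or 393P_ZEB1 replicate 2 (adjusted p = 0.0586, 0.0605 and 0.0617). Of the exonic bases of Plxna1, 10.7% overlap an antisense gene. Plxna4 had a log2 fold change of 0.29 and was not called, but within-chromosome scaling gave 0.59 and a call (adjusted p = 0.0145). The plexin sum per kb was 221 ± 37.1 in 393P_vector and 157 ± 11.2 CPM per kb in 393P_ZEB1 (SD, n = 3). Most of this sum was Plxnb2, at 68.1% to 71.5% in 393P_vector and 62.5% to 64.9% in 393P_ZEB1. The fall of the sum therefore rests mostly on that gene, whose call was not stable.

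Of the netrins and Slits, secreted laminin-related and leucine-rich cues, 1 of each rose clearly. Ntn1, on chromosome 11 from 68209364 to 68386826, encodes the founding netrin. It was at 0.936, 0.901 and 0.578 CPM in 393P_vector and at 5.44, 4.91 and 4.93 CPM in 393P_ZEB1, a log2 fold change of 2.67 (SE 0.23, adjusted p = 7.46e-05). The median of all tested genes on chromosome 11 was 0.27, and whether it contributed to the rise of Ntn1 was not tested. Ntn4, a basement membrane component and the most abundant netrin per kb, was at 7.91, 8.67 and 9.77 CPM in 393P_vector and at 10.04, 10.7 and 13.04 CPM in 393P_ZEB1. The groups of Ntn4 were apart, yet its log2 fold change of 0.36 was not called (adjusted p = 0.117). It passed the threshold when 393P_vector replicate 3 was left out (0.44, adjusted p = 0.0251), when libraries were scaled within chromosome 10 (0.61, adjusted p = 0.0213) and with limma voom (0.47, adjusted p = 0.00484). Ntn3 was below 1 CPM on average in both conditions, with a log2 fold change of -1.47 (adjusted p = 0.0235). Its call was lost without 393P_vector replicate 2, 393P_ZEB1 replicate 1 or 393P_ZEB1 replicate 3 (adjusted p = 0.065, 0.0776 and 0.0783) and with scaling within chromosome 17 (-1.07, adjusted p = 0.0714).

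Slit2, on chromosome 5, was at 24.9, 21.1 and 18.0 CPM in 393P_vector and at 38.5, 34.5 and 32.8 CPM in 393P_ZEB1, a log2 fold change of 0.73 (SE 0.15, adjusted p = 0.00689). It was the only Slit that could be tested. The Robo receptors that would bind it were low. Robo1 was at 0.212, 0.476 and 0.397 CPM in 393P_vector and at 0.243, 0.198 and 0.115 CPM in 393P_ZEB1, with overlapping groups, and Robo2 was between 0.136 and 0.318 CPM. Neither was called, and Robo3 and Robo4 did not pass the filter.

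Netrin receptors were represented by neogenin and Unc5b. Neo1, the neogenin gene, whose product also binds repulsive guidance molecules, was at 240.2, 224 and 233 CPM in 393P_vector and at 353, 317 and 313 CPM in 393P_ZEB1, a log2 fold change of 0.50 (SE 0.10, adjusted p = 0.00598). Unc5b, the most abundant receptor of this group per kb (80.3 and 91.8 CPM per kb), was at 506, 548 and 355 CPM in 393P_vector and at 511, 533 and 567 CPM in 393P_ZEB1. It was not called, with an interval of -0.14 to 0.53 for the log2 fold change. Dcc, the classical attractive netrin receptor, had 7 to 11 counts per sample and was not tested, and Unc5d was tested but not called at 11 to 31 counts.

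The 13 genes that did not pass the filter (Sema5b, Plxnb3, Epha3, Epha8, Epha10, Slit1, Slit3, Robo3, Robo4, Ntn5, Dcc, Unc5a and Unc5c) had 2 to 21 counts per sample, or 0.0328 to 0.253 CPM. They were left out of the test by that filter. The groups did not overlap for Slit1, at 9, 11 and 21 counts in 393P_vector and 5, 3 and 6 in 393P_ZEB1, or for Epha8, at 7, 8 and 19 and at 6, 6 and 3. Fitted without the filter, none of the 13 passed the threshold, the lowest adjusted p being that of Slit1 (log2 fold change -1.28, SE 0.45, adjusted p = 0.0681). Of the 57 tested, 47 reached an average of 1 CPM in at least 1 condition, and 34 of the 38 called genes were among these. The lowest called adjusted p belonged to Ephb2 (3.44e-07) and the highest to Sema6c (0.0498), while Efnb2 (0.0646) lay just beyond the threshold.

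**Figure D4:**
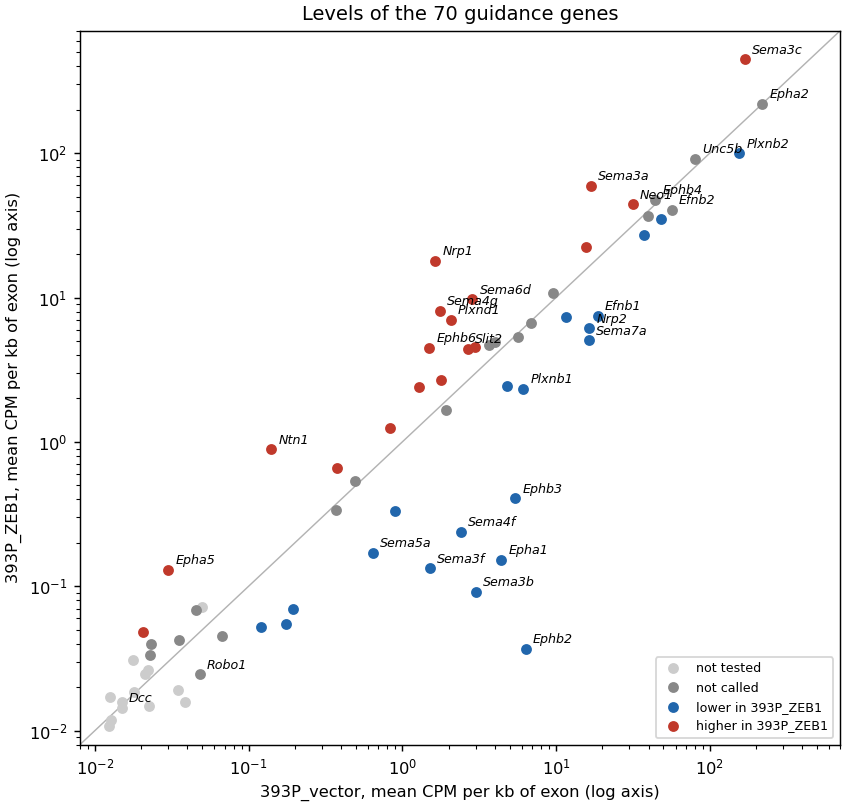
Mean level of each of the 70 guidance genes in 393P_vector (x axis) and 393P_ZEB1 (y axis), in CPM per kb of exon on log axes; each point is 1 gene, the gray line marks equal levels, and colors give the call. Sema3c and Epha2 are the most abundant, Nrp1 and Ntn1 lie above the line, and Ephb2, Sema3b, Epha1, Sema4f, Sema3f and Ephb3 lie far below it.

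Per kb of exon, Epha2 was the most abundant guidance transcript in 393P_vector (220.4 CPM per kb), followed by Sema3c (169 CPM per kb) and Plxnb2 (156 CPM per kb), and the sample ranges of neighbors in this order overlapped. In 393P_ZEB1 the order was Sema3c (449), Epha2 (219.9) and Plxnb2 (100.3 CPM per kb), with Unc5b (91.8 CPM per kb) overlapping Plxnb2. Sema3c made up 13.4% to 20.0% of all guidance transcripts per kb in 393P_vector and 32.7% to 36.1% in 393P_ZEB1. The summed level of all 70 genes went from between 998 and 1103 CPM per kb to between 1289 and 1339 CPM per kb. The means of this sum were 1067 and 1307 CPM per kb, within which Sema3c went from 169 to 449 CPM per kb.

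Genes that relay or modify guidance signals were read from a list of 62 genes, of which Crmp1, Dpysl4, Dpysl5 and Dscaml1 were too low to test. Of the 58 tested, 15 rose and 12 fell (46.6% called, against 37.6% of all genes), and their median log2 fold change was 0.11. The collapsin response mediator proteins act downstream of Sema3a. Among them Dpysl3 rose by 3.43 (adjusted p = 6.02e-06) from 2.00 ± 0.300 to 21.6 ± 2.59 CPM (SD, n = 3). It lies on chromosome 18, whose tested genes had a median of 0.64. Dpysl2 rose by 0.47 (adjusted p = 0.0149). Rgma, a ligand of neogenin, rose by 2.68 (adjusted p = 0.000305) from 0.461 ± 0.153 CPM to 2.92 ± 0.441 CPM. Flrt2, which binds Unc5 receptors, rose by 2.61 (adjusted p = 6.9e-05), whereas Flrt3 had a log2 fold change of -0.83 (adjusted p = 0.0257).

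Several exchange factors and GTPase regulators linked to Eph receptors and plexins also differed. Ngef (ephexin), activated by EphA receptors, fell by 3.73 on the log2 scale (adjusted p = 0.000838), with 393P_vector at 26.6, 26.9 and 7.32 CPM and 393P_ZEB1 at 1.48, 1.37 and 1.74 CPM. For Ngef 393P_vector replicate 3 was well below its group but above each 393P_ZEB1 sample. Chn1, the Rac GTPase-activating protein α-chimaerin downstream of Epha4, rose by 2.24 (adjusted p = 7.45e-05), and Vav3, Kalrn and Itsn1, exchange factors linked to Eph signaling, rose by 1.61, 1.43 and 1.14. Fyn, a kinase used by plexins and Eph receptors, rose by 1.61 (adjusted p = 1.63e-05). L1cam, an adhesion molecule that partners Nrp1, fell by 3.66 (adjusted p = 1.9e-05), and Dapk1, a mediator of Unc5-dependent death, fell by 2.64 at levels below 1 CPM. Mical2 rose by 0.81 and Mical1 fell by 1.21, 2 related actin-oxidizing enzymes that act below plexins. Rnd1, a small GTPase bound by plexins, Farp1 and Srgap1 fell by 1.04, 0.72 and 0.76. Ablim1, an actin-binding LIM protein linked to netrin signaling, fell by 1.68 (adjusted p = 2.5e-05) from a mean of 186 to 58.1 CPM. The other called genes of the list changed less, with rises of Pak1 (0.70), Adam10 (0.60), Cdk5 (0.57), Arhgef12 (0.46) and Abl2 (0.40) and log2 fold changes of -0.43 for Ptk2, -0.41 for Gpc1 and -0.40 for Sipa1l1. Like the receptors, these genes were divided between both directions.

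**Figure D5:**
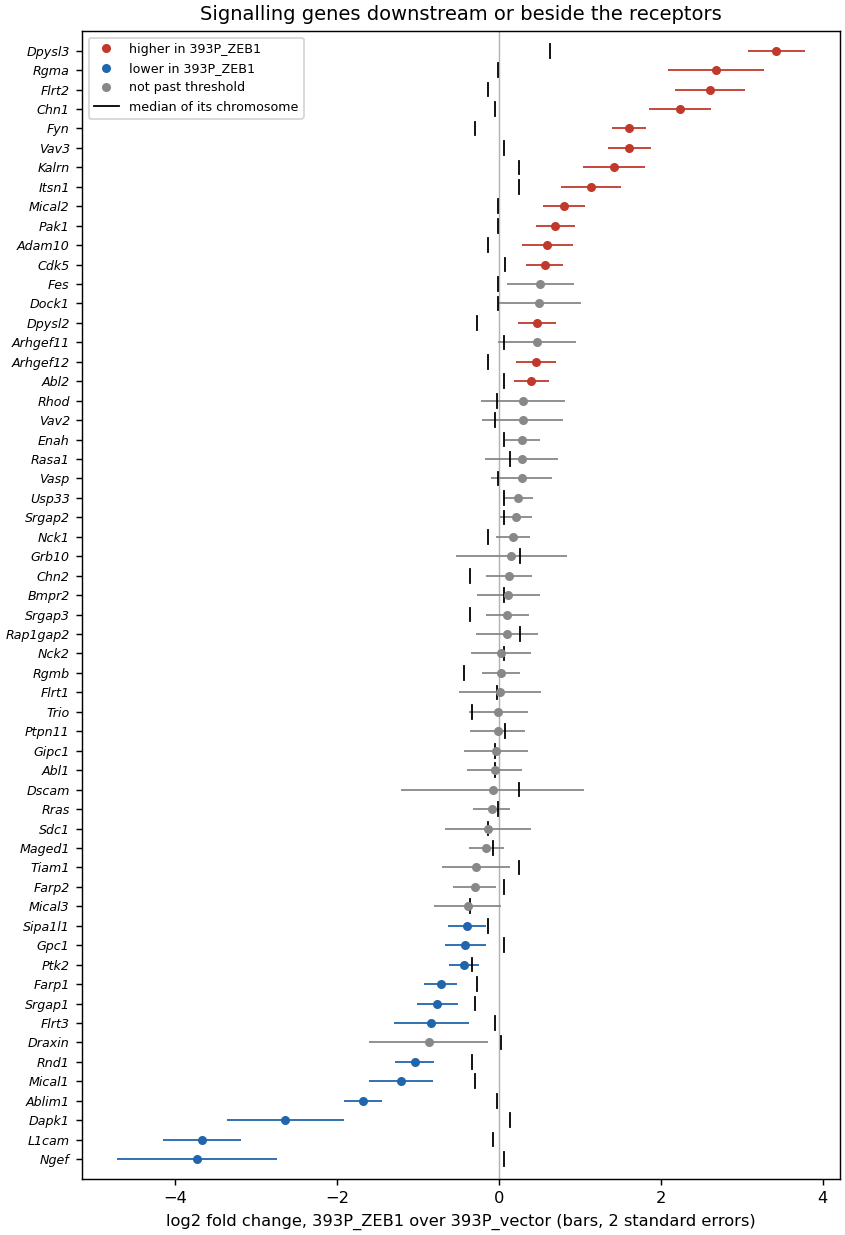
Log2 fold change of 393P_ZEB1 over 393P_vector (x axis) for the 58 tested genes that relay or modify guidance signals, sorted by value, with bars of 2 standard errors; red, higher, blue, lower, gray, not past the threshold, and the black tick is the median of the chromosome of the gene. Values run from -3.73 for Ngef to 3.43 for Dpysl3.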

How the data were processed

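Total RNA from 3 393P_vector and 3 393P_ZEB1 samples had been sequenced on the SOLiD platform, and samples were grouped by their labels. The authors deposited 1 table per sample with unnormalized counts of reads per gene, which were used for all tests. The same tables hold a deposited RPKM (counts scaled by exon length and library), which was not used for tests, and the number of exons with more than 10 reads, a deposited count per gene. The aligner, the counting program and its use of strand are not given in the sources used here. Coordinates matched GRCm38, since 99.3% of 20841 genes matched by symbol overlapped their RefSeq GRCm38.p6 interval.

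Counts were analyzed in R 4.3.3 with edgeR 4.0.16 (filterByExpr with a minimum count of 10, TMM, robust quasi-likelihood fit on condition, Benjamini-Hochberg adjustment over 13892 genes, threshold 0.05). Standard errors are the log2 fold change divided by the square root of F. Exact permutation tests of 3 against 3 samples cannot give a p below 0.1. Levels between genes were compared only as CPM divided by exon length in kb. The procedure was also run on simulated counts, which held no outlying sample. That run does not show how the procedure performs on these data. Alternatives were DESeq2 1.42.0, its size factors, limma 3.58.1 voom with sample weights, other filters and thresholds, TMM within each chromosome, a replicate block and leaving out each sample.

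Members and lists were chosen with earlier results of these data known. In each family, values per sample are given for up to 4 called genes with the largest change, groups apart and at least 1 CPM, and for the gene with the highest level per kb. Other called genes are given by mean or change, and all called relay genes are named, those described in more detail having been chosen after their values were seen. Replicate pairs differed by more than sampling noise (chi-square per degree of freedom 21.1 to 332), so none was counted as a duplicate. Promoters came from RefSeq and exon overlaps from GENCODE M21, using Python 3.11.15.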

Additional observations from a re-analysis of the deposited data

How the results depend on the processing

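The counts of guidance genes called, 18 higher and 20 lower, moved little with the software and normalization: 18 and 20 with DESeq2's size factors in edgeR, 17 and 20 with DESeq2, 19 and 21 with limma voom, and 20 and 17 with TMM within each chromosome. A test against a fold change of 1.5 left 10 higher and 12 lower guidance genes, 8 and 6 relay genes, and 1081 and 1118 of all genes, against 2539 and 2679. An adjusted p threshold of 0.01 left 1584 and 1545 of all genes, and limma voom called 3977 and 4094. Leaving out 1 sample gave 16 to 18 higher and 15 to 21 lower guidance genes, and 11 to 22 and 9 to 18 relay genes. Over all genes it gave 1861 to 3700 higher and 1784 to 3776 lower. These all-gene counts were lowest without 393P_ZEB1 replicate 3 and highest without 393P_vector replicate 3. With the replicate number as a block, 16 and 20 guidance genes were called, with Sema6c and Ephb1 lost, and 14 and 10 relay genes and 2180 and 2256 of all genes. Deviations of same-numbered samples correlated with r = 0.279, -0.205 and -0.038 for replicates 1 to 3, and only the samples numbered 1 correlated best with each other, so the numbers were not taken to pair samples.

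Of 789 values of single guidance genes recomputed, 731 kept their direction and side of the threshold, 37 lost a call and 7 gained one. In 14 the sign turned, 13 of them values of 7 genes called in neither fit (Epha2, Ephb4, Efna4, Efnb3, Sema4c, Sema6b and Unc5d). The other was Efna5, which at -0.03 became 0.36 (adjusted p = 0.027) with TMM within chromosome 17. Of the 38 called genes, 31 held in each alternative that tested for any change at the same threshold and gave them a value. The others were Efna1, Efna3, Sema6c, Plxna1, Plxnb2, Ephb1 and Ntn3. The test against a fold change of 1.5 is not among these alternatives, and it kept 22 of the 38. The 16 it lost were the genes just named and Epha4, Plxna2, Plxna3, Sema3d, Sema3e, Sema4d, Sema6a, Slit2 and Neo1. Requiring 10 counts in every sample left 4 called genes untested. The cause of these changes was not tested. The 13 genes removed by the filter had 2 to 21 counts per sample.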
